A study of Mus musculus with 29 samples.

Results

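The 10 genes described here encode proteins that coat lipid droplets or build them: the perilipins Plin2, Plin3, Plin4 and Plin5, the CIDE proteins Cidea, Cideb and Cidec, the FIT proteins Fitm1 and Fitm2, and Hilpda. They were taken by symbol from a table of gene counts, 10 of 54532 genes in all, and all 10 had enough counts to be tested among 15603 tested genes. The counts come from poly-A RNA of livers of obese male mice, in a study of the liver transcription factor Prox1. K556R mice carry, in hepatocytes, a Prox1 knock-in allele that lacks a site for the small protein modifier SUMO, and wild-type (WT) mice carry normal Prox1. The 4 groups comprise 8 refed K556R, 6 refed WT, 7 fasted K556R and 8 fasted WT livers. By their labels all groups shared a chow diet up to 8 weeks of age, then 18 weeks of a diet with 45% of fat and 20% of fructose, and collection between ZT 15 and ZT 17. K556R was switched on by Cre recombination at 8 weeks. The driver of the Cre, and whether WT mice also received it, are not given in the sources used here, and neither are the lengths of the fast and of the refeeding. Each group was spread over 2 labelled batches, and what sets the batches apart is not given either.

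A lipid droplet is a core of triglyceride and sterol ester under a single layer of phospholipid. It buds from the endoplasmic reticulum, where FIT proteins act, and is then covered by perilipins, which keep lipases away from the core. CIDE proteins pass lipid from small droplets to larger ones, and Hilpda inhibits the triglyceride lipase encoded by Pnpla2. In a fatty liver several of these genes are known to be induced, and Plin2, Plin4, Plin5, Cidea and Cidec are known targets of PPAR nuclear receptors.

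Totals ran from 19065976 to 27278251 counts per library in batch 1 and from 14385218 to 23526145 in batch 2. The libraries carried the hepatocyte markers of liver, with Alb (albumin) at a median of 61500 CPM (counts scaled to library size) over the 29 libraries. Feeding labels were matched by the feeding genes: in refed against fasted livers of each genotype, Srebf1 and Fasn rose and Pck1 and Igfbp1 fell. The defining adipocyte markers Adipoq, Lep and Plin1 had 10, 0 and 28 counts over all 29 libraries, and the brown adipocyte marker Ucp1 had 3. The summed adipocyte markers were nearly all Cfd, a gene with a median of 5.15 CPM. In whole liver, fewer cells of a type and less RNA per cell cannot be told apart. Refed K556R replicate 4 of batch 1 stood apart from all other libraries in several droplet coat genes, and refed WT replicate 1 of batch 2 was the lowest library for Plin2, Plin3 and Hilpda.

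Per length of transcript, Plin2 was the leading droplet coat gene of these livers. Plin2, the main perilipin of the hepatocyte, stood at 432 ± 75.9 CPM per kb (SD over 29 libraries, longest transcript), and its lowest library (263) lay above the highest library of any of the other 9 genes (196, for Cidec). This gap depends on the length used: by all exonic bases the libraries of Plin2 and Cidec overlapped. Next came Cidec at 92.2 ± 41.9, Cidea at 81.5 ± 31.0, Fitm1 at 69.6 ± 12.4 and Plin5 at 57.05 ± 19.1 CPM per kb. Below them stood Cideb at 43.6 ± 4.27, Fitm2 at 38.4 ± 9.29, Plin4 at 29.2 ± 13.5, Plin3 at 14.5 ± 2.71 and Hilpda at 4.41 ± 1.13 CPM per kb. From Cidec down to Plin3 the ranges of each neighbouring pair overlapped. Hilpda lay below Plin3 in every library, with 7.32 CPM per kb as its highest and 10.7 as the lowest of Plin3. In the mm10 build, 3 of the perilipin genes sit near each other on the minus strand of chromosome 17: Plin4 (56100591 to 56109803), Plin5 (56111601 to 56117596) and Plin3 (56277476 to 56292873).

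**Figure D1:**
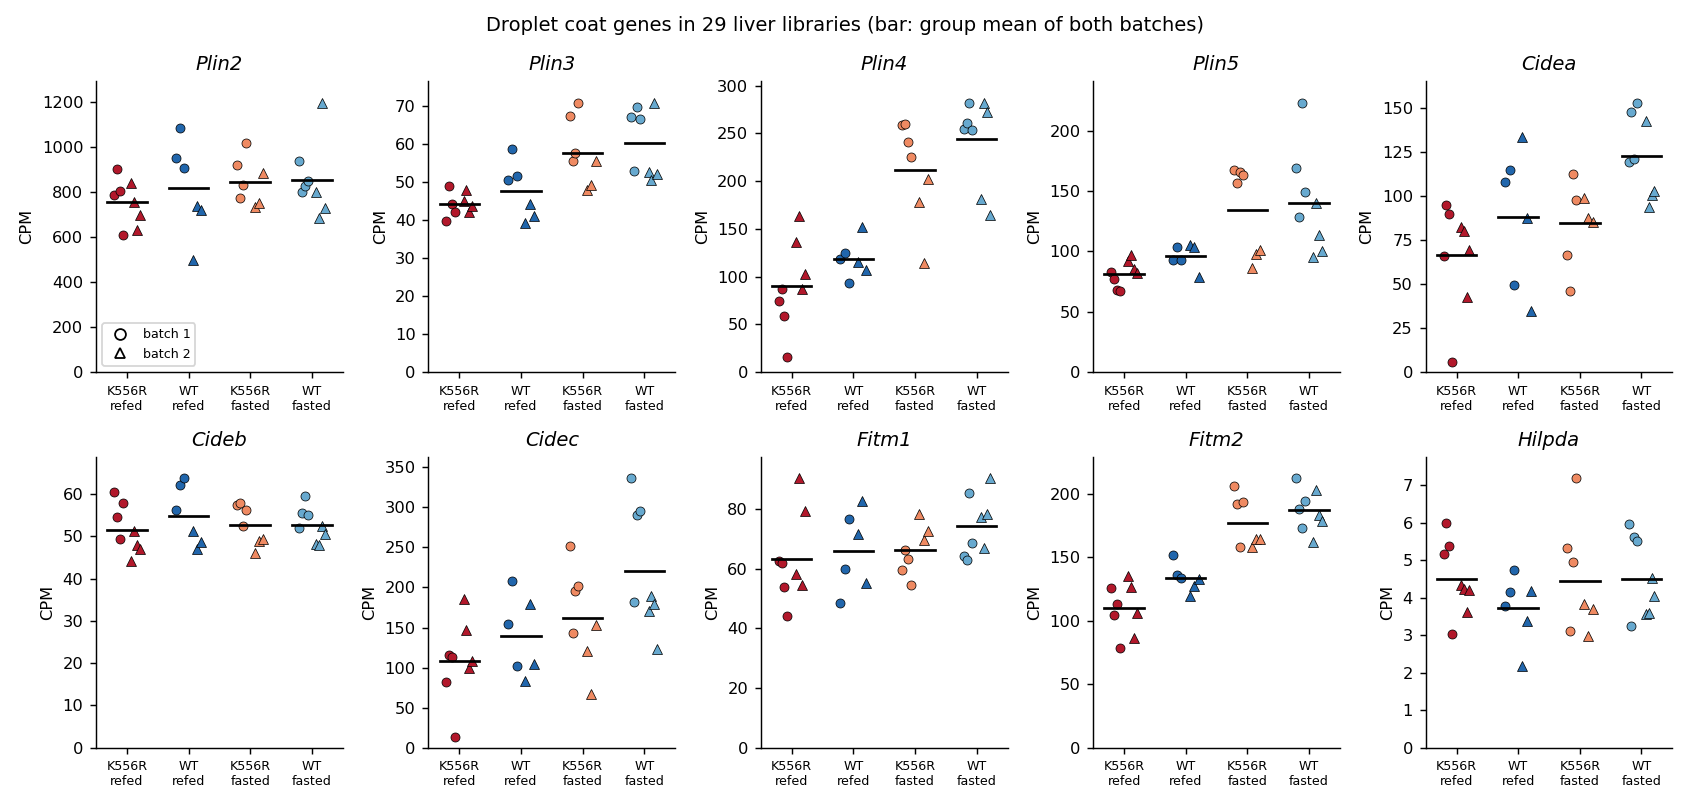
Level of each droplet coat gene in CPM (vertical axes, starting at 0) in every library of the 4 groups, with circles for batch 1, triangles for batch 2 and a bar at the group mean. Refed livers lie low for Plin3, Plin4, Plin5 and Fitm2, and 1 refed K556R library lies far below the rest for Cidea (5.56 CPM) and Cidec (13.4 CPM).

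Refeeding lowered 4 of the 10 genes in both genotypes: Plin4, Plin5, Plin3 and Fitm2. No other of the 10 passed the test in either direction. In K556R livers these were 4 lower calls of 10, where 8.39% of all tested genes were called lower and 15.4% in either direction (an adjusted p below 0.05 by the quasi-likelihood test of edgeR). In WT livers the same 4 genes were called lower, where 5.43% of all tested genes were called lower and 10.7% in either direction. The median log2 change of the 10 genes on refeeding was -0.36 in K556R and -0.41 in WT livers, where the median over all tested genes was 0.01 in K556R and 0.00 in WT livers. The test of a different refeeding response in K556R and WT livers called none of the 10 and 0% of all genes. At an unadjusted p below 0.05 it held 0 of the 10 and 440 of all genes, and DESeq2 called 0 as well. The intervals of that difference are wide: the K556R response over the WT response was a fold of 0.863 (95% interval 0.515 to 1.45) for Plin4, 0.909 (0.685 to 1.21) for Plin5, 0.989 (0.840 to 1.17) for Plin3 and 0.874 (0.729 to 1.05) for Fitm2. Without refed K556R replicate 4 of batch 1, the log2 difference between the responses was -0.02 for Plin4, against -0.21 with it, -0.08 for Plin5, against -0.14 with it, and -0.13 for Fitm2, against -0.19 with it.

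Shown are promoters of the 4 genes called lower in both genotypes, and of Plin2, the leading coat gene, which did not pass the test. Each is 300 bases of RefSeq sequence on GRCm38.p6, from 250 before to 50 after the annotated start, 5′ to 3′ on the gene's own (minus) strand. The windows are Plin4 at chr17:56109733-56110032, Plin5 at chr17:56117499-56117798, Plin3 at chr17:56290462-56290761, Fitm2 at chr2:163472580-163472879 and Plin2 at chr4:86670010-86670309. RefSeq lists another start window for Plin5, and the Plin3 start lies inside the longer GENCODE gene. Capitals mark matches on either strand to a direct repeat of AGGTCA with any 1 base between its copies and up to 2 mismatches (the form of PPAR sites), to an exact single AGGTCA, which can lie inside the repeat, and to ACGTG, the core letters of hypoxia response elements.
Plin4: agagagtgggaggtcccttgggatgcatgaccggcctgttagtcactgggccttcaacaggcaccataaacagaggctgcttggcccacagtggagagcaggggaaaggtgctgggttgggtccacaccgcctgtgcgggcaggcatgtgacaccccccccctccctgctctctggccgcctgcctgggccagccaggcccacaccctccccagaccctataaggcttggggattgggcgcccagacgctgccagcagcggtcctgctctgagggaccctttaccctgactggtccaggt
Plin5: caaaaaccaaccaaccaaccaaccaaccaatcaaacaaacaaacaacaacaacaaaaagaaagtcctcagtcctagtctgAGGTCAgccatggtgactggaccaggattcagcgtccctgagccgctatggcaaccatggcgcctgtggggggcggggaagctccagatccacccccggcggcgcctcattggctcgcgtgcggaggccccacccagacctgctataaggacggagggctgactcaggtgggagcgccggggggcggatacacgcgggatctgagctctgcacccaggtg
Plin3: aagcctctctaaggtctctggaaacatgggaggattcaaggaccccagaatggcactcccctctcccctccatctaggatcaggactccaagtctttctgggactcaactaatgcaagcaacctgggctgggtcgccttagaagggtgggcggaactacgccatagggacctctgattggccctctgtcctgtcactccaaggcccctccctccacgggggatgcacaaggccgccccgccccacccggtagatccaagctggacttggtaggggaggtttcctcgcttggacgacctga
Fitm2: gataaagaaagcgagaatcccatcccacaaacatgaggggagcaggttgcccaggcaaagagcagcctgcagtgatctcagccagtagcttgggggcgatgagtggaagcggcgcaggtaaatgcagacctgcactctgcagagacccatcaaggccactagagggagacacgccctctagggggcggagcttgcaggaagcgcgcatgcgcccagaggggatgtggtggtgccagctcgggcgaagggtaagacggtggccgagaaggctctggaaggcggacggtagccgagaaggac
Plin2: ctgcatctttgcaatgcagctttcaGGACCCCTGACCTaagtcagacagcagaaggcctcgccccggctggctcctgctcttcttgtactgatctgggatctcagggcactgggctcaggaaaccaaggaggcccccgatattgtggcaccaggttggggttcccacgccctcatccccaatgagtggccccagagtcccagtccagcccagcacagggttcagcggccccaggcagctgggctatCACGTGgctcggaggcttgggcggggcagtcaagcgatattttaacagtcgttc
Counted from the annotated start, Plin2 held a direct repeat match at -225 with 2 mismatches, on the strand opposite to the gene, and an exact AGGTCA inside it at -218. It also held ACGTG on both strands near -4. Plin5 held 1 exact AGGTCA at -170. The windows of Plin4, Plin3 and Fitm2 held none of the 3 patterns. Of 32851 mouse windows of this length, 3.86% held the direct repeat, 16.3% an exact AGGTCA and 19.6% ACGTG. The matches are letters in a sequence, and absence of a match says only that these letters are not in this window.

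Among perilipins, Plin4 (ENSMUSG00000002831), which coats droplets through a long array of amphipathic repeats, changed most. Its lowest, median and highest libraries were 15.6, 86.9 and 163 CPM in refed K556R livers, against 115, 225 and 259.5 CPM in fasted K556R livers. In WT they were 92.8, 117 and 152 CPM in refed livers, against 164, 258 and 282 CPM in fasted livers. All 6 refed WT livers lay below all 8 fasted WT livers, which held for 1.48% of all tested genes. In K556R the groups overlapped through batch 2, where refed livers of 137 and 163 CPM stood above the lowest fasted one. Refed over fasted, Plin4 fell by 1.26 on the log2 scale in K556R (SE 0.27, adjusted p = 0.00133 by Benjamini-Hochberg over all genes, edgeR) and by 1.05 in WT (SE 0.28, edgeR adjusted p = 0.0125). These are folds of 0.417 in K556R (95% interval 0.289 to 0.601) and 0.483 in WT (0.330 to 0.705). Without refed K556R replicate 4 of batch 1, the log2 change of Plin4 in K556R was -1.06 (edgeR adjusted p = 0.000277).

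Plin5 (ENSMUSG00000011305), a perilipin of oxidative tissues that ties droplets to mitochondria and holds back the lipase of Pnpla2, fell in both genotypes. It had 66.99, 82.5 and 96.7 CPM as lowest, median and highest in refed K556R livers, against 86.4, 156 and 168 CPM in fasted K556R livers. In WT it had 79.0, 98.2 and 106 CPM in refed livers, against 95.3, 134 and 223 CPM in fasted livers. Both pairs of groups overlapped, and the libraries that overlapped on the fasted side were of batch 2. The log2 change was -0.65 in K556R (SE 0.15, edgeR adjusted p = 0.00195) and -0.52 in WT (SE 0.15, edgeR adjusted p = 0.025). The WT call ended when any 1 of 4 libraries was left out, with edgeR adjusted p of 0.0581 without fasted replicate 3 of batch 1, 0.0666 and 0.0648 without refed replicates 1 and 3 of batch 1, and 0.0561 without refed replicate 3 of batch 2.

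Plin3 (ENSMUSG00000024197), a perilipin that moves from the cytosol onto young droplets, fell by a smaller amount. Its lowest, median and highest libraries were 39.8, 43.9 and 49.1 CPM in refed K556R livers, against 48.0, 55.6 and 71.0 CPM in fasted K556R livers. In WT they were 39.1, 47.5 and 58.8 CPM in refed livers, against 50.6, 59.8 and 70.9 CPM in fasted livers. The groups overlapped narrowly in K556R, where 1 fasted library of batch 2 lay at 48.0 CPM, and more widely in WT. The log2 change was -0.36 in K556R (SE 0.08, edgeR adjusted p = 0.00257) and -0.35 in WT (SE 0.09, edgeR adjusted p = 0.0083).

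Plin2 (ENSMUSG00000028494, chromosome 4, 86648386 to 86670060, minus strand), which guards triglyceride on most hepatocyte droplets, did not pass the test in either genotype. It had 611, 771 and 904 CPM as lowest, median and highest in refed K556R livers, against 732, 833 and 1020 CPM in fasted K556R livers. In WT it had 497, 824 and 1083 CPM in refed livers, against 683, 813 and 1198 CPM in fasted livers. The groups overlapped over most of their range. The log2 change was -0.15 in K556R (SE 0.12, edgeR adjusted p = 0.464) and -0.08 in WT (SE 0.13, edgeR adjusted p = 0.769), with 95% intervals of the fold from 0.767 to 1.06 in K556R and from 0.798 to 1.12 in WT.

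Of the FIT proteins, membrane proteins of the endoplasmic reticulum needed for droplet budding, Fitm2 fell and Fitm1 did not pass the test. Fitm2 (ENSMUSG00000048486, chromosome 2, 163466379 to 163472629, minus strand) had 78.5, 109.9 and 136 CPM as lowest, median and highest in refed K556R livers, against 158, 165 and 206 CPM in fasted K556R livers. In WT it had 120, 133 and 152 CPM in refed livers, against 162, 186 and 212 CPM in fasted livers. In each genotype every refed liver lay below every fasted liver, within each batch as well as over both. Of all tested genes this held for 2.09% in K556R and 1.48% in WT over both batches, for 8.07% and 14.5% in batch 1 and batch 2 of K556R, and for 7.99% and 7.3% in batch 1 and batch 2 of WT. The log2 change was -0.68 in K556R (SE 0.09, edgeR adjusted p = 5.25e-06) and -0.48 in WT (SE 0.10, edgeR adjusted p = 0.00117), folds of 0.625 (95% interval 0.551 to 0.708) and 0.715 (0.626 to 0.815).

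Fitm1 (ENSMUSG00000022215, chromosome 14, 55575617 to 55576954, plus strand) is best known from skeletal muscle. It averaged 63.2 ± 14.8 CPM in refed K556R and 66.3 ± 8.11 CPM in fasted K556R livers (SD, n = 8 and 7), and 65.8 ± 13.2 CPM in refed WT and 74.3 ± 10.1 CPM in fasted WT livers (SD, n = 6 and 8). Its log2 change on refeeding was -0.09 in K556R (SE 0.11) and -0.18 in WT (SE 0.12), with edgeR adjusted p of 0.654 and 0.392. Muscle markers were near 0 in these livers: Tnnc2 had 0 counts over all libraries, Ckm and Mb 3 each and Acta1 11, and the sum of 5 such markers ran from 0.112 to 1.16 CPM. An antisense gene shares 11.2% of the exonic bases of Fitm1 and another 5.72% of those of Fitm2.

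None of the 3 CIDE genes passed the refeeding test in either genotype. Cidec (ENSMUSG00000030278, chromosome 6, 113424634 to 113435760, minus strand), which enlarges droplets at their contact sites, had 13.4, 111 and 186 CPM as lowest, median and highest in refed K556R livers, against 66.9, 154 and 251 CPM in fasted K556R livers. In WT it had 83.7, 129.7 and 209 CPM in refed livers, against 123, 186 and 336 CPM in fasted livers. The log2 change of Cidec was -0.50 in K556R (SE 0.33, edgeR adjusted p = 0.347) and -0.65 in WT (SE 0.34, edgeR adjusted p = 0.249). Without refed K556R replicate 4 of batch 1 the change of Cidec in K556R was -0.28 (edgeR adjusted p = 0.469). All of these groups overlapped.

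Cidea (ENSMUSG00000024526, on chromosome 18), a droplet-enlarging protein best known from brown fat, had 5.56, 74.6 and 94.8 CPM in refed K556R livers, against 46.2, 87.4 and 112 CPM in fasted K556R livers. In WT it had 34.8, 97.8 and 133 CPM in refed livers, against 93.9, 120.3 and 153 CPM in fasted livers. Refed and fasted livers overlapped in both genotypes. The log2 change of Cidea was -0.35 in K556R (SE 0.32, edgeR adjusted p = 0.533) and -0.48 in WT (SE 0.34, edgeR adjusted p = 0.434). With refed K556R replicate 4 of batch 1 and refed WT replicate 1 of batch 2 both left out, a choice made after seeing the data, the changes of Cidea were -0.16 in K556R and -0.66 in WT (edgeR adjusted p = 0.662 and 0.0573).

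Cideb (ENSMUSG00000022219, chromosome 14, 55754050 to 55758458, minus strand), the CIDE protein of normal hepatocytes, which loads lipid onto VLDL, had the smallest SD relative to its mean of the 10 genes over the 29 libraries. Its group means were 51.6 ± 5.65 CPM in refed K556R, 54.8 ± 7.04 in refed WT, 52.6 ± 4.70 in fasted K556R and 52.7 ± 3.95 in fasted WT livers (SD). Its log2 change on refeeding was -0.01 in K556R (95% interval of the fold 0.928 to 1.06) and 0.05 in WT (0.968 to 1.11). Of its exonic bases, 76.3% overlap Nop9 on the other strand, and no source used here gives the strand setting of the counting, so reads of the pair may be mixed. Hilpda (ENSMUSG00000043421, chromosome 6, 29272488 to 29275446, plus strand), a hypoxia-induced inhibitor of lipolysis, was the scarcest, with 30 to 149 counts per library. It averaged 4.496 ± 0.973 CPM in refed K556R and 4.44 ± 1.496 CPM in fasted K556R livers, and 3.73 ± 0.889 CPM in refed WT and 4.51 ± 1.06 CPM in fasted WT livers (SD). Its log2 change on refeeding was 0.06 in K556R (SE 0.16) and -0.27 in WT (SE 0.17), with edgeR adjusted p of 0.86 and 0.376.

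**Figure D2:**
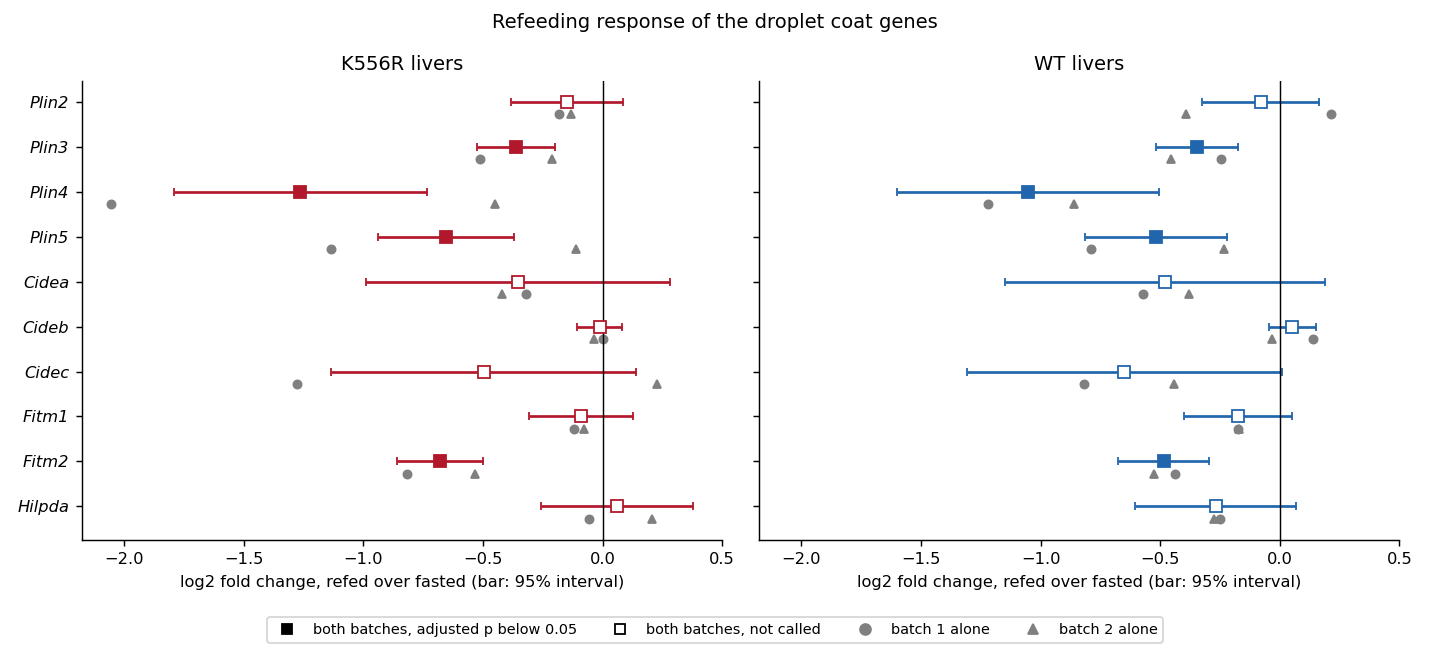
Log2 fold change of refed over fasted livers for each droplet coat gene in K556R (left) and WT livers (right), with 95% intervals as bars. Filled squares passed the test over both batches, and grey circles and triangles give each batch alone: Plin5 in K556R stands at -1.14 in batch 1 and -0.11 in batch 2.

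The refeeding fall of Plin5 differed in size between the batches. In batch 1, Plin5 had 82.5, 77.1, 67.9 and 66.99 CPM in the refed K556R livers, against 168, 156, 166 and 163 CPM in the fasted K556R livers. In batch 2 it had 92.4, 96.7, 85.0 and 82.5 CPM in the refed K556R livers, against 86.4, 97.6 and 101 CPM in the fasted K556R livers. The groups were well apart in batch 1 and overlapped in batch 2. Plin5 of WT livers showed the same order: in batch 1 it had 93.0, 104 and 92.5 CPM when refed against 169, 129, 223 and 149 CPM when fasted, and in batch 2 106, 104 and 79.0 CPM when refed against 95.3, 140, 114 and 100.3 CPM when fasted. A test of the batch difference, chosen after these values were seen, gave Plin5 a log2 refeeding response lower by -0.81 in batch 1 than in batch 2 over both genotypes (SE 0.14, edgeR adjusted p = 0.00367), where 2.74% of all genes were called. In K556R alone the difference for Plin5 was -1.06 (edgeR adjusted p = 0.00606), where 3.54% of all genes were called. In WT alone the difference for Plin5 was -0.57 (edgeR adjusted p = 0.397, unadjusted 0.00768), where 0% were called. Plin2 went the other way in WT, at 0.59 (edgeR adjusted p = 0.457, unadjusted 0.0171).

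Plin4 followed the same order of batches in K556R livers. In batch 1 it had 74.2, 86.7, 58.9 and 15.6 CPM in the refed K556R livers, against 259, 259.5, 241 and 225 CPM in the fasted ones, with no overlap, as for 8.07% of all tested genes. In batch 2 it had 137, 163, 87.0 and 103 CPM in the refed K556R livers, against 178, 115 and 202 CPM in the fasted ones. The batch difference of the Plin4 response was -1.63 in K556R (SE 0.44, edgeR adjusted p = 0.0365) and -1.32 without replicate 4 of batch 1 (edgeR adjusted p = 0.0306). Over both genotypes it was -1.004 (edgeR adjusted p = 0.0798), and without that library -0.85 (edgeR adjusted p = 0.0305). The other 8 genes did not pass this test over both genotypes or in either genotype. With each batch tested alone, 4 of the 10 were called lower in batch 1 of K556R, where 4.9% of all tested genes were, and 1, Fitm2, in batch 2, where 8.14% were. In WT livers 2 were called lower in batch 1, Plin4 and Plin5, where 2.86% of all tested genes were, and 2 in batch 2, Plin3 and Fitm2, where 2.25% were. For Fitm2, the log2 change by batch was -0.82 in batch 1 and -0.53 in batch 2 of K556R, and -0.44 in batch 1 and -0.53 in batch 2 of WT. Feeding genes moved in both batches: Pck1 changed by -1.82 in batch 1 and -1.42 in batch 2 of K556R and by -1.83 and -1.26 in the same batches of WT.

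Between the genotypes none of the 10 genes passed the test, in refed livers, fasted livers or the mean of both states. Of all tested genes, 0% were called in refed livers, 0.103% in fasted livers and 1.24% over both states. At an unadjusted p below 0.05, edgeR held 1 of the 10 in refed livers, 0 in fasted livers and 1 over both states, where it held 8.45%, 9.48% and 14.7% of all tested genes in the same order. DESeq2 at an adjusted p below 0.05 called 0 in each. The fitted differences were mostly below 0: 9 of 10 in refed livers, 10 of 10 in fasted livers and 9 of 10 over both, with Hilpda the exception. Their median was -0.16 in refed livers, -0.09 in fasted livers and -0.13 over both, against 0.00 for all tested genes in each. In refed livers 9 of 10 were below 0 in batch 1 alone and 5 of 10 in batch 2 alone, and in fasted livers 7 of 10 in batch 1 alone and 10 of 10 in batch 2 alone. Without refed K556R replicate 4 of batch 1 the refed median was -0.105. The member at an unadjusted p below 0.05 was Fitm2 in both cases. Its K556R minus WT difference was -0.28 in refed livers (SE 0.10, edgeR adjusted p = 0.406) and -0.18 over both states (SE 0.07, edgeR adjusted p = 0.17), folds of 0.823 (95% interval 0.722 to 0.937) and 0.880 (0.804 to 0.963).

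The largest fitted genotype differences over both states belonged to the CIDE pair and Plin4, with wide errors. Cidea was at -0.47 (SE 0.23, edgeR adjusted p = 0.356, unadjusted 0.0555), a fold of 0.723 with a 95% interval from 0.526 to 0.994. Cidec was at -0.39 (SE 0.23, edgeR adjusted p = 0.44), a fold of 0.763 (0.559 to 1.04). Plin4 was at -0.30 (SE 0.19, edgeR adjusted p = 0.484), a fold of 0.814 (0.630 to 1.05). Plin2 and Plin3 stayed closer to 0, at -0.07 (fold 0.955, 0.850 to 1.07) and -0.09 (fold 0.941, 0.868 to 1.02). In refed livers Cidea was at -0.40 with all libraries, at -0.22 without replicate 4 of batch 1 of refed K556R, and at -0.02 without that library and refed WT replicate 1 of batch 2. The summed adipocyte markers, nearly all Cfd, had a lower median in K556R over both batches. Their lowest, median and highest were 1.05, 3.16 and 8.30 CPM in refed K556R and 1.81, 6.28 and 12.7 CPM in refed WT livers. In fasted livers they were 2.70, 4.53 and 11 CPM in K556R and 3.15, 9.97 and 28.8 CPM in WT. The fasted livers of batch 1 did not show this, at 4.53, 5.15, 3.89 and 3.86 CPM in K556R and 3.15, 10.6, 4.24 and 3.45 CPM in WT. That list has 5 genes, of which Lep was at 0 in all 29 libraries, Adipoq in 23 and Plin1 in 16, and its part in the CIDE values was not tested.

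In batch 1 the refed genotypes were apart for 5 of the 10 genes. Every refed K556R liver of batch 1 lay below every refed WT liver of batch 1 for Plin2, Plin3, Plin4, Plin5 and Fitm2, which held for 4.34% of all tested genes. For Plin2 these were 785, 904, 806 and 611 CPM in refed K556R livers, against 952, 1083 and 907 CPM in refed WT livers. For Fitm2 they were 126, 105, 113 and 78.5 CPM in refed K556R livers, against 152, 136 and 134 CPM in refed WT livers. In batch 2 all 10 genes overlapped between the refed genotypes, where 6.04% of all tested genes had K556R below WT without overlap, and over both batches the share was 0.032%. Plin2 had there 839, 758, 631 and 698 CPM in refed K556R livers, against 497, 740 and 722 CPM in refed WT livers. With batch 1 tested alone, edgeR adjusted p for the 10 genes between the refed genotypes ran from 0.435 to 0.842, so none passed. Fasted livers showed such a gap for 1 gene, Cidea in batch 1, at 66.5, 46.2, 112 and 97.6 CPM in fasted K556R livers, against 120, 148, 121 and 153 CPM in fasted WT livers, which held for 2.76% of all tested genes.

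**Figure D3:**
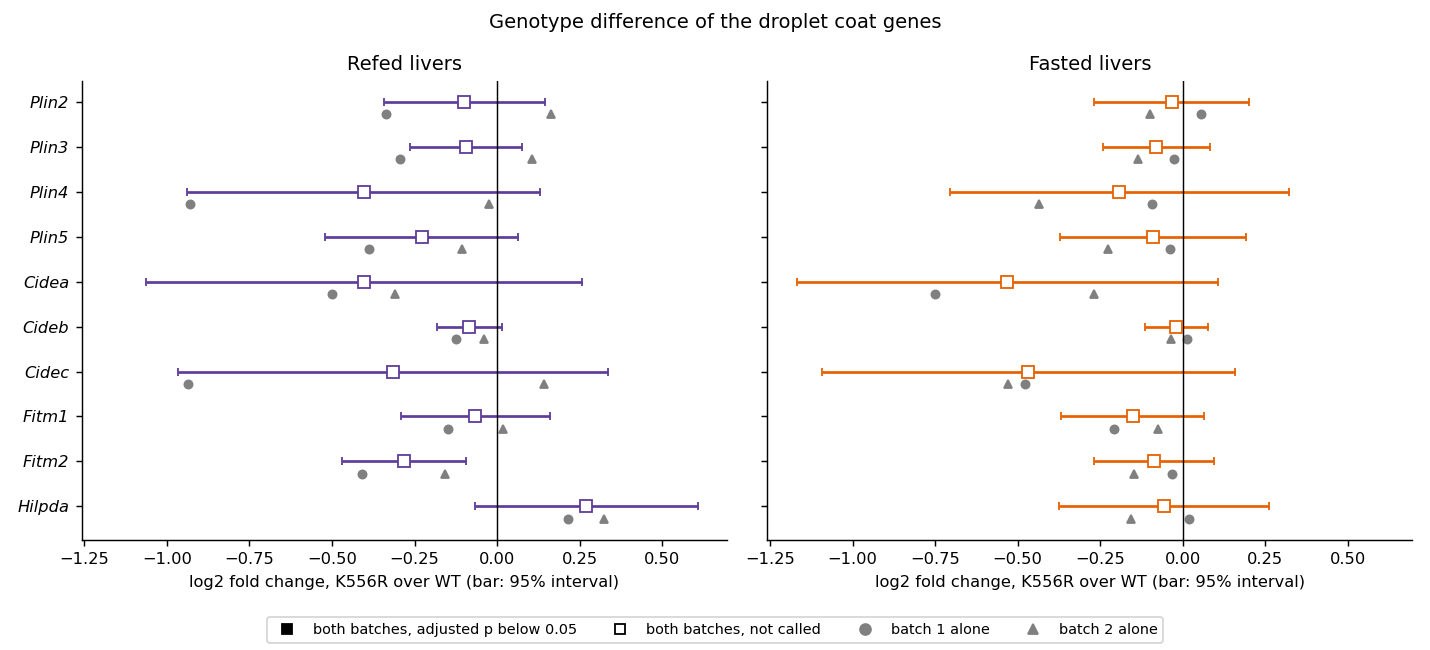
Log2 fold change of K556R over WT for each droplet coat gene in refed (left) and fasted livers (right), with 95% intervals as bars and each batch alone in grey. No square is filled, and in refed livers the batch 1 value of each of the 10 genes lies to the left of its batch 2 value.

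Refed K556R replicate 4 of batch 1 stood apart. It had the lowest level of all 29 libraries for 6 of the 10 genes, Plin4, Plin5, Cidea, Cidec, Fitm1 and Fitm2. Cidea had 5.56 CPM there, against 66.1 to 94.8 CPM in the other 3 refed K556R livers of batch 1, a log2 gap of -3.87. That gap ranked 8 from the lowest among the 15603 tested genes. Cidec had 13.4 CPM there, against 82.1 to 115 CPM in the other 3, a gap of -2.93 that ranked 35 from the lowest. Plin4 had 15.6 CPM there, against 58.9 to 86.7 CPM in the other 3, a gap of -2.20 that ranked 131. The gap was -0.44 for Plin2, -0.54 for Fitm2, -0.17 for Plin5 and 0.08 for Cideb. In the same library the summed adipocyte (1.05 CPM), stellate cell (92.1 CPM) and endothelial cell markers (87.2 CPM) were the lowest of all 29, and hepatocyte markers summed to 84200 CPM. Its macrophage and Kupffer cell markers were not low, at 258 CPM, where the 29 libraries ran from 120 to 477 CPM. The part of these markers in the low CIDE values was not tested. Without this library the refed K556R minus WT difference was -0.12 for Cidec, against -0.31 with it, -0.23 for Plin4, against -0.40 with it, and -0.05 for Plin2, against -0.10 with it. The median refeeding change of the 10 genes in K556R was -0.225 without it, against -0.36 with it.

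A second library, refed WT replicate 1 of batch 2, was doubted after its values were seen. It had the lowest level of all 29 libraries for Plin2 (497 CPM), Plin3 (39.1 CPM) and Hilpda (2.17 CPM), while its Cidea (133 CPM) was the highest of the 6 refed WT livers. Without it the refed K556R minus WT difference of Plin2 was -0.20, against -0.10 with it, and that of Cidea was -0.23, against -0.40 with it. The refeeding change in WT was 0.03 for Plin2 without it, against -0.08 with it, and -0.18 for Hilpda, against -0.27 with it.

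Pairs of members were compared over the 29 libraries after the mean of each group and batch was taken off, 45 pairs in all, so a shared difference between groups does not enter. Of these, 6 pairs had an adjusted permutation p below 0.05 by both Pearson's r and Spearman's rho. Plin2 and Plin3 went together (r = 0.772, permutation p = 5e-05, adjusted 9e-04; rho = 0.777, permutation p = 4e-05, adjusted 0.0018), with r = 0.71 without the 2 libraries farthest from the median of Plin2, and 0.675 and 0.885 in batch 1 and batch 2. Plin4 and Cidec did as well (r = 0.882, permutation p = 0.00044, adjusted 0.005; rho = 0.786, permutation p = 0.00022, adjusted 0.0033), with r = 0.713 without the 2 farthest libraries of Plin4, 0.658 without refed K556R replicate 4 of batch 1, and 0.902 and 0.827 by batch. These values share a library's depth and scaling.

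The other 4 pairs held Plin2 with Cidec and with Hilpda, Plin3 with Hilpda, and Plin4 with Plin5. Plin2 and Cidec had r = 0.622 (permutation p = 6e-05, adjusted 9e-04) and rho = 0.697 (permutation p = 0.00015, adjusted 0.0033), and r was 0.71 without the 2 farthest libraries. Plin2 and Hilpda had r = 0.682 (permutation p = 4e-05, adjusted 9e-04) and rho = 0.692 (permutation p = 0.00042, adjusted 0.0047), and r was 0.683 without the 2 farthest libraries. Plin3 and Hilpda had r = 0.628 (permutation p = 0.00099, adjusted 0.0089) and rho = 0.639 (permutation p = 0.0013, adjusted 0.012), and r was 0.584 without the 2 farthest. Plin4 and Plin5 had r = 0.42 (permutation p = 0.0045, adjusted 0.029) and rho = 0.596 (permutation p = 0.0023, adjusted 0.017), with r = 0.476 without the 2 farthest libraries, 0.328 in batch 1 and 0.606 in batch 2. Cidea and Cidec had r = 0.77 (permutation p = 0.028, adjusted 0.1) and rho = 0.421 (permutation p = 0.073, adjusted 0.23), but r was 0.311 without refed K556R replicate 4 of batch 1, so the high r rests on that library.

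**Figure D4:**
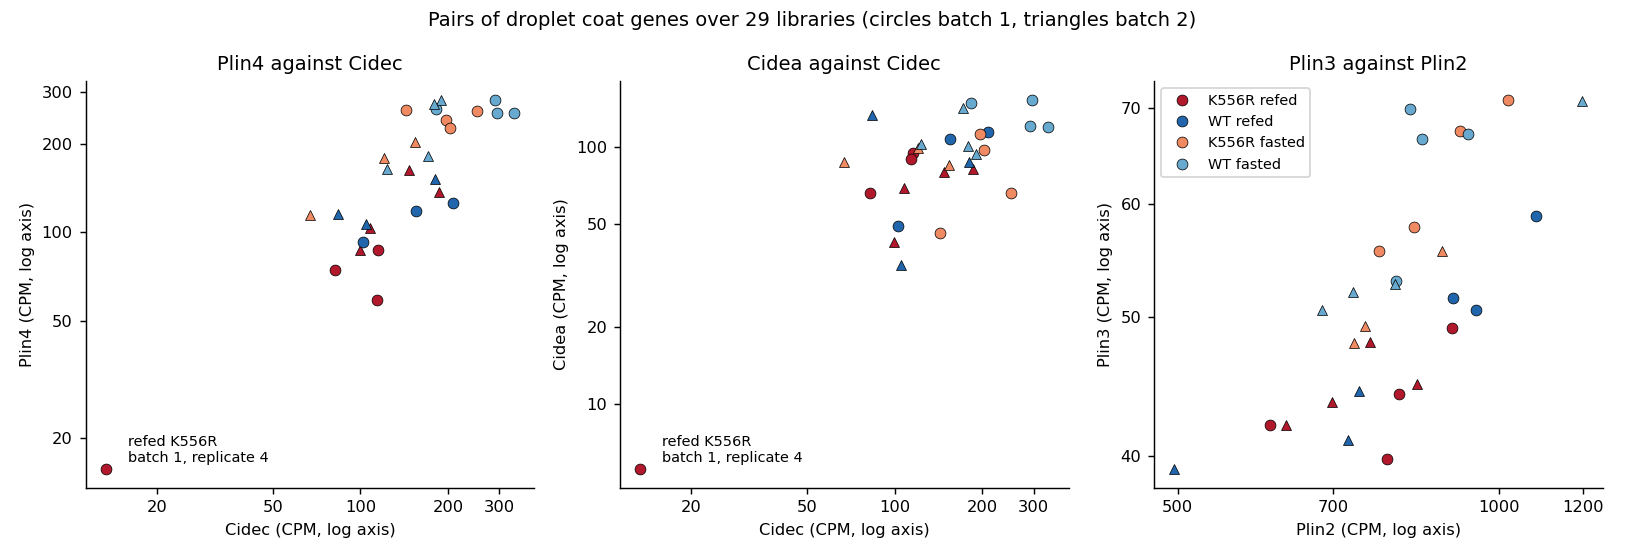
CPM of Plin4 against Cidec, Cidea against Cidec and Plin3 against Plin2 in the 29 libraries, all axes logarithmic, coloured by group, with circles for batch 1 and triangles for batch 2. The library at the lower left of the first 2 panels is refed K556R replicate 4 of batch 1, at 13.4 CPM of Cidec, and the other 28 lie along a band in the first and last panels.

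Genes that act beside the coat proteins did not share one direction on refeeding. Of 12 listed droplet biogenesis genes 11 were tested. In K556R livers 1 rose and 2 fell, and in WT livers 1 rose and 1 fell, with a list median of 0.03 in each genotype. Acsl3, an acyl-CoA synthetase found on nascent droplets, rose by 1.44 in K556R (SE 0.19, edgeR adjusted p = 2.34e-06) and 1.06 in WT (SE 0.19, edgeR adjusted p = 0.000357). Gpat4, a glycerol phosphate acyltransferase that moves to growing droplets, fell by 0.56 in K556R (edgeR adjusted p = 0.000202) and by 0.54 in WT (edgeR adjusted p = 0.000895). Vps13c, a lipid transfer protein, fell by 0.30 in K556R (edgeR adjusted p = 0.0431).

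Of 15 other droplet resident proteins, 3 rose and 4 fell in K556R livers, and 4 rose and 3 fell in WT livers. Pnpla3, a lipid hydrolase of droplets, rose by 4.32 on the log2 scale in K556R (SE 0.60, edgeR adjusted p = 7.5e-06) and 3.18 in WT (SE 0.58, edgeR adjusted p = 0.000408). Aifm2, a droplet-associated oxidoreductase, fell by 0.55 in K556R (edgeR adjusted p = 0.00102) and by 0.51 in WT (edgeR adjusted p = 0.00505). Spart, which takes part in droplet turnover, fell by 0.52 in K556R and by 0.29 in WT (edgeR adjusted p = 3.02e-05 and 0.0242). Mettl7a1 fell by 0.32 in K556R (edgeR adjusted p = 0.00105) and did not pass in WT (-0.17, edgeR adjusted p = 0.133). Lss rose by 0.87 in K556R and by 0.82 in WT (edgeR adjusted p = 0.00123 and 0.00363). Mettl7b rose by 0.29 in K556R and by 0.27 in WT (edgeR adjusted p = 0.00192 and 0.00786).

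Of 6 listed lipolysis genes, 2 fell and none rose on refeeding in each genotype. Pnpla2, the first lipase of triglyceride breakdown, fell by 0.92 in K556R (SE 0.12, edgeR adjusted p = 2.19e-06) and by 0.90 in WT (SE 0.13, edgeR adjusted p = 1.43e-05). Lipe, the hormone-sensitive lipase, fell by 0.99 in K556R (SE 0.09, edgeR adjusted p = 3.83e-09) and by 1.04 in WT (SE 0.09, edgeR adjusted p = 1.16e-08). Lipe was also lower in K556R than in WT livers, by a log2 difference of -0.44 when fasted (SE 0.09, edgeR adjusted p = 0.0415) and -0.42 over both states (SE 0.06, edgeR adjusted p = 0.000934). In refed livers Lipe was at -0.39 (SE 0.09, edgeR adjusted p = 0.136). In batch 2 alone edgeR called 0 of all genes in the fasted contrast and 0 over both states, so these calls of Lipe end there.

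Of 16 PPAR-alpha target genes outside the coat genes, 10 fell on refeeding in K556R and 7 in WT livers and none rose, with list medians of -0.35 and -0.27. Angptl4, an inhibitor of lipoprotein lipase, fell by 1.80 in K556R (SE 0.10, edgeR adjusted p = 8.28e-13), and its change in WT was -1.503 (SE 0.11, edgeR adjusted p = 1.97e-10). Acot1, an acyl-CoA thioesterase, fell by 0.94 in K556R and by 0.62 in WT (edgeR adjusted p = 3.22e-05 and 0.00729). Cyp4a10, a fatty acid hydroxylase, fell by 1.22 in K556R and by 0.98 in WT (edgeR adjusted p = 0.000531 and 0.00982). Creb3l3, a transcription factor of fasting, fell by 0.41 in K556R (edgeR adjusted p = 0.000203). Cpt1a, the gate enzyme of mitochondrial fatty acid import, fell by 0.58 in K556R and by 0.48 in WT (edgeR adjusted p = 0.00105 and 0.0131). Of 12 listed hypoxia-induced genes 11 were tested, of which 2 rose and 3 fell in K556R and 1 rose and 2 fell in WT livers. Vegfa rose by 0.41 in K556R and 0.38 in WT (edgeR adjusted p = 0.000207 and 0.00121), while Slc2a1 fell by 0.54 in K556R and by 0.41 in WT (edgeR adjusted p = 4.07e-05 and 0.00232). Bnip3 fell by 0.43 in K556R and by 0.38 in WT (edgeR adjusted p = 0.00652 and 0.0319), and Egln3 rose by 0.42 in K556R (edgeR adjusted p = 0.0142). Slc2a1 was also lower in K556R than in WT over both states, by -0.25 (edgeR adjusted p = 0.0354), a call that also ends in batch 2 alone, where 0 genes were called.

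**Figure D5:**
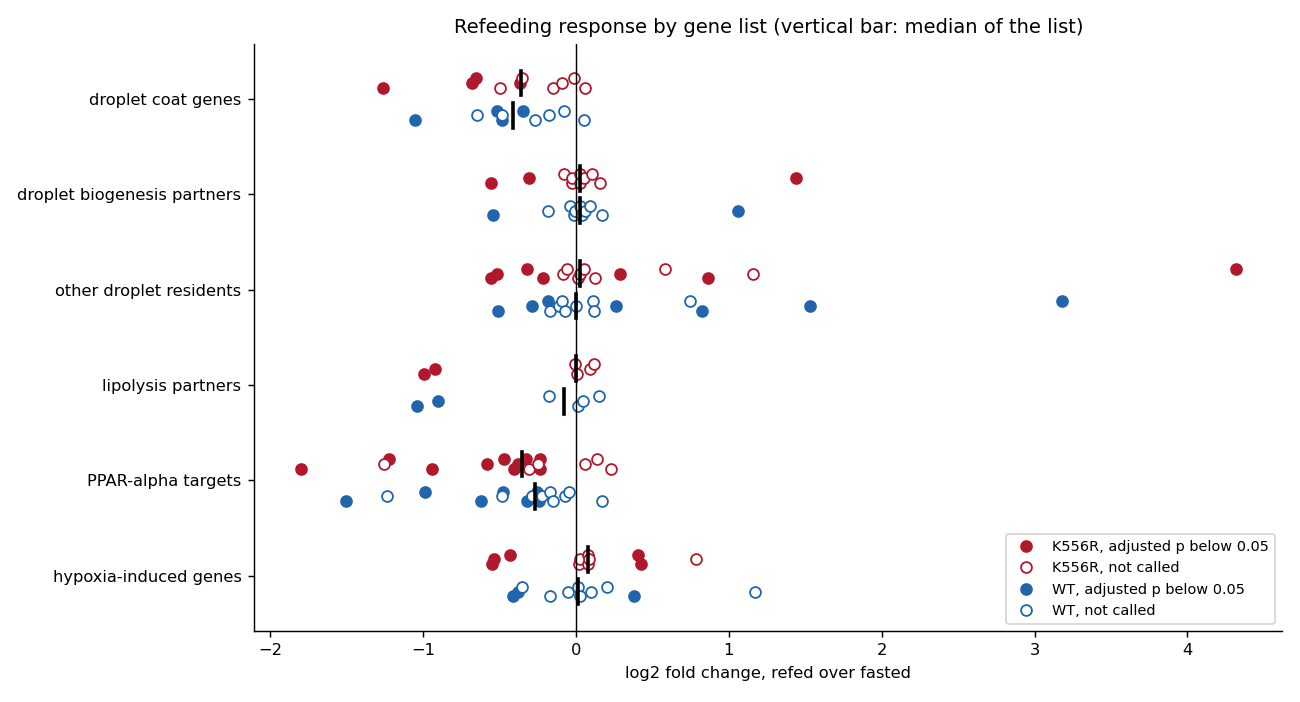
Log2 fold change of refed over fasted livers for the genes of each list in K556R (upper row of each pair) and WT (lower row), with filled points for genes that passed the test and a vertical bar at the list median. The medians of the droplet coat genes (-0.36 in K556R and -0.41 in WT) and of the PPAR-alpha targets (-0.35 in K556R and -0.27 in WT) lie left of 0, and Pnpla3 is the point farthest to the right in each genotype.

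For the 4 genes that fell on refeeding, the genes with the most similar pattern were found by Pearson's r of log2 CPM over the 29 libraries, with the batch mean taken off. These are descriptions over 15603 genes, and feeding differences shared by many genes enter them. Plin4 was nearest to Slc41a3 (0.951), Pla2g12a (0.938) and Tmem189 (0.915). Plin5 was nearest to Aifm2 (0.93), Tns1 (0.916) and Pla2g12a (0.912). Fitm2 was nearest to Pdzrn3 (0.941), the peroxisomal Pex11a (0.941) and the carnitine transporter Slc22a5 (0.94). Plin3 was nearest to Rbpms (0.885), Rtf2 (0.882) and Pip4k2c (0.879). Pla2g12a stood on the lists of both Plin4 and Plin5.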

How the data were processed

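Raw counts per gene, as whole numbers in 29 libraries, were deposited by the authors. Tools named in the submitters' processing notes are HTSeq, STAR, TopHat, STAR-Fusion, DESeq2 and edgeR, with the mm10 build; which of them made the table is not said. The annotation release and the strand setting are not given in sources used here, so genes that overlap on opposite strands are uncertain. Symbols and positions come from GENCODE M21 (GRCm38), which matched 54495 of 54532 identifiers, and the 37 others held 0.000917% of counts. Spart and Ero1a were matched by an older symbol, and Ldaf1 had no match.

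Genes were kept by filterByExpr of edgeR 4.0.16 (minimum count 10, minimum total 15), scaled by TMM and fitted by quasi-likelihood on the 4 groups plus batch (R 4.3.3, limma 3.58.1). A gene is called where its p, adjusted by Benjamini-Hochberg over 15603 genes, is below 0.05. CPM uses TMM-scaled totals, log2 CPM adds a prior count of 2, each SE comes from the F statistic, and intervals span 1.96 SE. Such intervals are slightly narrower than the F test of edgeR allows, so calls rest on the test. Permutation p-values are two-sided, from 100000 draws. The depth of at least 14385218 counts per library leaves most members well counted, and intervals from counts would cover counting error only. Alternatives were DESeq2 1.42.0, its size factors, no filter, no batch term, each batch alone, a replicate block and leaving out libraries; the batch test of the refeeding response was chosen after within-batch values were seen. The procedure was also run on counts simulated with known refeeding changes. That simulation held no batch or genotype difference and no outlying library, so it does not cover these. No label ties each library to its own mouse, so a p-value reflects only how these libraries vary, which may be technical. The members and lists were chosen with earlier results of these data known. All 10 members are named in the refeeding comparisons, and genotype differences and the interaction are given for some of them. For each list at most 4 called genes are named per comparison, by smallest p. Some of these list genes are also given for the other genotype. The 3 genes most alike to each called member are named as well. Figures were drawn with matplotlib 3.10.9.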

Additional observations from a re-analysis of the deposited data

Results flagged for a closer look

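Of the droplet coat genes, 3 had 1 refed K556R liver, replicate 4 of batch 1, far from the other 7 of its group. Cidea stood at 5.56 CPM there, and the next lowest liver of the group was at 42.8 and the highest at 94.8 CPM, so the gap was 0.72 of the range, above Dixon's 95% limit of 0.526 for 8 samples. Cidec stood at 13.4 CPM, with the next lowest at 82.1 and the highest at 186 CPM, a gap of 0.689 of the range. Plin4 stood at 15.6 CPM, with the next lowest at 58.9 and the highest at 163 CPM, a gap of 0.566 of the range. In all, 40 sets of values were examined (10 genes in 4 groups) and 3 were flagged, where chance alone flags about 1 in 20. All 3 flags fall on the same library.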

How the results depend on the processing

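Members called on refeeding numbered 4 in K556R and 4 in WT livers with DESeq2, with its size factors in edgeR, without a filter, without the batch term, with the replicate block (repeat number within batch), and without the 2 doubted libraries together, an alternative added after seeing the data. The labels give the repeat numbers no shared litter or day. Libraries sharing a number correlated at -0.387 to 0.36 over 40 pairs, 5 of them above 0.1. Libraries with other numbers correlated at -0.336 to 0.391 over 117 pairs, 26 of them above 0.1. Sharing a number thus brought no higher correlation, which cannot exclude a shared litter or day. The replicate block changed no other call of a member: 0 were called in any genotype contrast or in the interaction under any of these settings. In batch 1 alone 4 were called in K556R and 2 in WT, Plin4 and Plin5. In batch 2 alone 1 was called in K556R, Fitm2, and 2 in WT, Plin3 and Fitm2. Each batch has fewer livers. Over all genes, though, refeeding in K556R called 1497 in batch 1 alone and 1925 in batch 2 alone. Leaving out each library in turn (29 fits) gave 4 to 4 in K556R and 3 to 4 in WT, the lost call being Plin5, and 0 to 0 in the other contrasts. Of 2220 member values under alternatives, 44 changed sign, all for members that were not called. Over all genes, the fasted genotype contrast called 16 with the main settings, 89 with DESeq2, 45 without a filter, 33 in batch 1 alone, 0 in batch 2 alone, 2 without the batch term, 2 with the replicate block and 2 to 46 with 1 library left out. The refed contrast called 0, but 44 with DESeq2, 10 without a filter, 5 and 7 in batches 1 and 2 alone, and 0 to 20 with 1 library left out (20 without refed K556R replicate 4 of batch 1). The mean of both states called 194, but 426 with DESeq2, 125 and 0 in batches 1 and 2 alone, 98 without the batch term, 92 with the replicate block and 116 to 309 with 1 library left out. On refeeding, K556R called 2397, but 2682 with DESeq2, 2386 with its size factors, 1900 without a filter and 1990 without the batch term. It called 2032 with the replicate block, 2600 without the 2 doubted libraries, and 1497 and 1925 in batches 1 and 2 alone. WT called 1667, but 1896 with DESeq2, 1651 with its size factors, 1282 without a filter and 1279 without the batch term. It called 1466 with the replicate block, 1784 without the 2 doubted libraries, and 846 and 592 in batches 1 and 2 alone. Dividing by all exonic bases in place of the longest transcript lowered Plin2 to 232 CPM per kb. That was still the highest mean of the 10, but its libraries then overlapped those of Cidec. Hilpda, at 30 to 149 counts per library, is the member whose depth limits precision most.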
